A study of Mus musculus with 6 samples.

Results

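Genes of the TGF-β and BMP pathways were followed across oxygen levels and HIF-2α inhibition in primary myoblasts of the mouse, which are muscle precursors that divide in culture. The set was taken by gene symbol and held 59 of the 54834 genes in the deposited table. It covered the TGF-β ligands and their latency proteins, BMP and GDF ligands, activin and myostatin, their receptors, the secreted antagonists, the SMAD transducers and the Id genes. *Gdf15* was left out of the set by its definition. Myoblasts carried the Pax7-ZSGreen genotype, came from sorted satellite cells, and were adapted for more than 2 weeks to 1% pO2 (severe hypoxia), 4% pO2 (mild hypoxia) or 20% pO2 (normoxia). At each level they received either 1 μM PT2385, an inhibitor that keeps HIF-2α from pairing with ARNT, or 0.1% DMSO as vehicle, for 48 h. All 6 groups were grown in growth medium. Each condition was 1 library, made from the combined RNA of 9 cultures that covered 3 temporal replicates. No spread between replicates can therefore be measured, no error or p-value is given between conditions, and all differences below compare single libraries.

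TGF-β family ligands are secreted dimers that bring type I and type II receptor kinases together at the cell surface. TGF-β, activin and myostatin signal mainly through SMAD2 and SMAD3, and BMPs through SMAD1, SMAD5 and SMAD9, with SMAD4 as the shared partner. SMAD6 and SMAD7 are feedback inhibitors. In muscle, myostatin limits growth, TGF-β hinders differentiation and favours fibrosis, and BMP signalling maintains proliferation of progenitors, in part through the Id proteins, which sequester the E-protein partners of MyoD.

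Values are FPKM, which count fragments relative to transcript length and to library depth. Differences are of log2(FPKM + 1), which understates the change of weakly expressed genes, and a gene was counted as 2-fold where this difference was at least 1 in size. From the step between low values, the FPKM of a library were relative to about 19800000 to 23200000 fragments. This is the depth the values were scaled to, which may differ from the number of fragments sequenced. The genes compared were the 11967 with a mean of at least 1 FPKM over the 6 libraries. Of the 59 genes of the set, 39 passed this limit, 15 had a lower mean and 5 (*Bmp10*, *Bmp15*, *Gdf2*, *Gdf3* and *Gdf10*) were listed at 0 in every library. Of 6 myoblast markers, 5 had a mean of at least 1 FPKM. *Myod1* stood between 500.8 and 951.0 FPKM and *Pax7* between 16.5 and 36.3 FPKM, whereas *Myf5* had at most 0.481 FPKM. The summed myoblast markers were at 831 FPKM in both hypoxic PT2385 libraries against 1282 FPKM in the normoxic one, and at 792 (1% pO2) and 743 (4% pO2) against 1249 FPKM in vehicle. Summed markers of differentiating muscle cells were at 33.4, 56.4 and 25.9 FPKM at 1%, 4% and 20% pO2 with PT2385, and at 30.8, 89.6 and 39.6 FPKM in vehicle.

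Markers of other cell types were also read. Of the immune list, 2 of 5 genes had a mean of at least 1 FPKM, and its sum was 19.0, 102 and 3.29 FPKM at 1%, 4% and 20% pO2 with PT2385 and 17.1, 91.1 and 2.63 FPKM in vehicle. *Ptprc* and *Adgre1*, which define immune cells, had 0.00994 FPKM or less in every library, whereas *Laptm5* had 91.5 (PT2385) and 80.7 FPKM (vehicle) at 4% pO2 and at most 4.21 FPKM elsewhere. *Cd68*, a lysosomal gene of macrophages, had 14.6, 9.88 and 2.78 FPKM with PT2385 and 13.5, 10.4 and 2.08 FPKM in vehicle. Of the fibroblast and fibro-adipogenic list, 2 of 5 genes passed, *Cd34* and *Ly6a*, both also found on some satellite cells, and its sum was 13.5, 6.30 and 3.52 FPKM with PT2385 and 13.2, 5.59 and 2.44 FPKM in vehicle. *Dpt* and *Lum* of that list had 0.0285 FPKM or less. Of the smooth muscle and pericyte list, 2 of 4 genes passed, *Rgs5* and *Notch3*, and its sum was 42.0, 39.3 and 22.1 FPKM with PT2385 and 45.5, 46.3 and 24.7 FPKM in vehicle, while *Myh11* had at most 0.0142 FPKM. The immune, fibroblast and pericyte sums were thus higher in all 4 hypoxic libraries. Of the adipocyte list, 1 of 4 genes passed, *Fabp4*, which reached 17.3 FPKM at 1% pO2 with PT2385 and at most 1.05 FPKM in the other libraries. *Adipoq* and *Plin1* of that list were also highest in that library, at 1.47 and 0.793 FPKM, with at most 0.0395 and 0.0923 FPKM elsewhere. The adipocyte sum was 19.6, 0.276 and 0.703 FPKM at 1%, 4% and 20% pO2 with PT2385 and 1.18, 0.237 and 0.320 FPKM in vehicle. None of the 4 endothelial or 3 Schwann cell markers had a mean of 1 FPKM. Whether these shifts in marker genes bear on the values below was not tested.

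Hypoxia was accompanied by 2-fold differences mainly in secreted regulators. On the log2(FPKM + 1) scale, no measured receptor differed 2-fold from 20% pO2. Of the 8 SMADs, *Smad7* did so at 1% pO2 and *Smad3* at 4% pO2 with PT2385. In vehicle at 1% pO2, 4 of the 39 measured genes were 2-fold higher than at 20% pO2 (*Inhba*, *Fstl3*, *Grem1* and *Smad7*), beside 6.59% of all genes compared, and 3 were 2-fold lower (*Ltbp2*, *Mstn* and *Nog*), beside 1.96%. At 4% pO2 in vehicle, 3 were 2-fold higher (*Inhba*, *Fstl3* and *Grem1*), beside 7.14%, and 4 were 2-fold lower (*Ltbp2*, *Mstn*, *Nog* and *Fstl1*), beside 2.95%. As shares of the 39, 4 genes are 10.3% and 3 genes are 7.69%. Both hypoxic differences use the same normoxic vehicle library. The PT2385 libraries, none of which enters the vehicle contrast, gave the same 4 higher genes (6.54% of all) and 3 lower genes (2.06%) at 1% pO2. At 4% pO2 with PT2385, the 4 lower genes were also the same (2.94%), and the 3 higher genes (7.24%) were *Inhba*, *Fstl3* and *Smad3*. At both hypoxic levels, 3 genes were 2-fold higher (3.97% of all genes compared) and 3 lower (1.13%) in vehicle, and 2 were higher (3.83%) and 3 lower (1.15%) with PT2385. In all 4 comparisons, *Inhba* and *Fstl3* were 2-fold higher (3.09%) and *Ltbp2*, *Mstn* and *Nog* were 2-fold lower (0.785%). Between 1% and 4% pO2, *Nog* and *Grem1* were 2-fold higher in vehicle (2.77%) with 0 lower (2.52%), and with PT2385 *Nog* was higher (3.1%) and *Bmpr1b* lower (2.86%). The sign of the difference was the same with PT2385 and in vehicle for 36 of the 39 genes at 1% pO2 (92.3%, against 83.4% of all genes compared) and for 34 at 4% pO2 (87.2%, against 83.4%). The median difference over the 39 genes was −0.05 at 1% pO2 and 0.06 at 4% pO2 in vehicle, against 0.01 and 0.02 over all genes compared. In vehicle, 17 were higher and 22 lower at 1% pO2, and 24 were higher and 15 lower at 4% pO2.

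**Figure D1:**
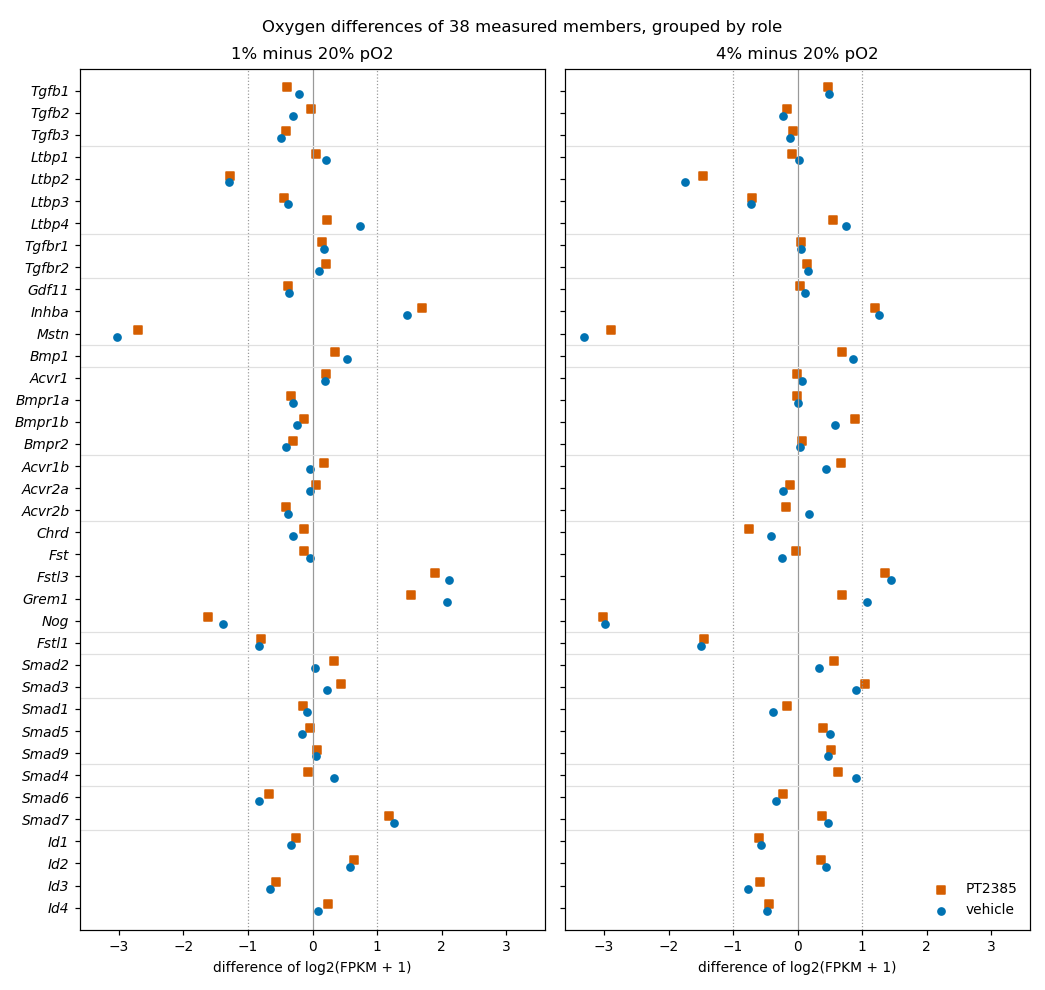
Difference of log2(FPKM + 1) between 1% and 20% pO2 (left) and between 4% and 20% pO2 (right) for 38 of the 39 measured genes, grouped by role, with PT2385 (squares) and in vehicle (circles), each point a comparison of 2 libraries and dotted lines at −1 and 1. *Mstn* and *Nog* lie farthest to the left and *Fstl3* farthest to the right, while receptors and receptor SMADs lie mostly between the dotted lines.

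To show what lies upstream of the genes that were 2-fold different at both hypoxic levels in vehicle, the 250 bases before the transcription start are given for the 5 of these 6 that the RefSeq promoter table holds (GRCm38.p6, 5′ to 3′ on the gene's strand). Capitals mark the HIF core letters ACGTG or GCGTG on either strand (read as CACGT or CACGC on the other strand), and the BMP-responsive letters GGCGCC. The windows are chr10:79777024-79777273 (+) for *Fstl3*, chr13:16011601-16011850 (+) for *Inhba*, chr2:113758649-113758898 (−) for *Grem1*, chr1:53061390-53061639 (+) for *Mstn* and chr12:84876492-84876741 (−) for *Ltbp2*.
Fstl3: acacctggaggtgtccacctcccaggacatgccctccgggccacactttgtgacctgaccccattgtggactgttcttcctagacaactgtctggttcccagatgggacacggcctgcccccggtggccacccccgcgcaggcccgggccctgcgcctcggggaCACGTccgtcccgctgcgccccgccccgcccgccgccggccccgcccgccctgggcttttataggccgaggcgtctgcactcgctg
Inhba: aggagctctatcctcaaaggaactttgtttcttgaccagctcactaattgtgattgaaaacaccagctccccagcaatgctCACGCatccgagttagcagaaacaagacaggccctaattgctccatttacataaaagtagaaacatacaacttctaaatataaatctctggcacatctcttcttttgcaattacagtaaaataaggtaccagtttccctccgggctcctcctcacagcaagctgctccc
Grem1: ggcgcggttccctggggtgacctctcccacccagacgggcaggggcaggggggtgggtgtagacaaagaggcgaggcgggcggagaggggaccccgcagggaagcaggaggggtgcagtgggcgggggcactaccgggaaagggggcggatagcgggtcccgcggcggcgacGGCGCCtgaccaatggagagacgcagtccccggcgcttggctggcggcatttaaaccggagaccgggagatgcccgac
Mstn: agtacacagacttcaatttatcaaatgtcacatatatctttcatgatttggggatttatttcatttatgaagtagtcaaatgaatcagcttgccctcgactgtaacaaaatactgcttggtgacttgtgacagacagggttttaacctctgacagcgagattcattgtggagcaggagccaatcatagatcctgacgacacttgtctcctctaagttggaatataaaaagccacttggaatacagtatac
Ltbp2: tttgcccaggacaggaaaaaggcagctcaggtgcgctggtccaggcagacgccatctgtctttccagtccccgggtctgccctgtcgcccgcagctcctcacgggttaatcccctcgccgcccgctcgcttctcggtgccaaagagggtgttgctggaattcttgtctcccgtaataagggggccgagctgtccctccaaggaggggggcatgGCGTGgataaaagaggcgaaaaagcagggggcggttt
A HIF core began 86 bases before the RefSeq start in *Fstl3*, 169 before it in *Inhba* and 37 before it in *Ltbp2*. By these starts it lay upstream of genes that were higher and of a gene that was lower in hypoxia. The GENCODE span of *Ltbp2*, on the minus strand, reaches to 84876532, which is inside its window. By that span the *Ltbp2* core lies within the gene and not upstream of it. The windows of *Grem1* and *Mstn* held no HIF core, and *Grem1* held GGCGCC from 78 bases before its start. These short words are common. A HIF core was in 38.6% of all 32851 windows of this length and in 25 of the 51 windows of the 41 genes of the set that have one, and GGCGCC was in 9.59% of all windows and in 12 of these 51. The SMAD palindrome GTCTAGAC was in 0.167% of all windows and in none of the 51.

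Antagonists that bind activin, myostatin and related ligands were more abundant in hypoxia, through *Fstl3*. *Fstl3* (chromosome 10, 79777272 to 79782630, plus strand) encodes a secreted follistatin-like inhibitor of activin and myostatin. It had 23.1, 15.6 and 5.48 FPKM at 1%, 4% and 20% pO2 with PT2385, and 23.4, 14.3 and 4.62 FPKM in vehicle. All 4 hypoxic libraries lay above both normoxic ones, and both 1% libraries above both 4% libraries. The differences from normoxia were 1.89 at 1% pO2 and 1.36 at 4% pO2 with PT2385, and 2.12 and 1.45 in vehicle, the largest positive ones among the 39 genes on this scale. By the plain ratio of FPKM, *Inhba* exceeded *Fstl3* in each of these comparisons, with 6.37 against 5.06 times the normoxic level at 1% pO2 in vehicle. *Grem1*, described below, reached 9.51 times there. It also exceeded *Fstl3* at 4% pO2 in vehicle and at 1% pO2 with PT2385, but not at 4% pO2 with PT2385. *Fst*, follistatin itself, had 9.45, 10.2 and 10.5 FPKM with PT2385 and 8.29, 7.10 and 8.56 FPKM in vehicle, so its hypoxia differences were between −0.24 and −0.03. *Fstl3* therefore made up 71.0% and 60.4% of the summed FPKM of these antagonists at 1% and 4% pO2 against 34.4% at 20% pO2 with PT2385, and 73.9% and 66.9% against 35.1% in vehicle.

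The ligands of the same branch also differed. *Mstn* (chromosome 1, 53061640 to 53068079, plus strand) encodes myostatin, the secreted inhibitor of muscle growth. It had 0.282, 0.118 and 7.31 FPKM at 1%, 4% and 20% pO2 with PT2385, and 0.348, 0.112 and 9.99 FPKM in vehicle. The 4 hypoxic libraries were all far below the normoxic ones, and the differences in vehicle, −3.03 at 1% pO2 and −3.31 at 4% pO2, were the lowest of the set. In FPKM, the vehicle level was 0.0348 of the normoxic one at 1% pO2 and 0.0112 of it at 4% pO2. Over the lengths of its 2 annotated transcripts, the hypoxic values rest on about 17.9 to 19.8 fragments at 1% pO2 and 6.0 to 6.6 at 4% pO2 in vehicle, against 518.0 to 573.2 at 20% pO2. *Inhba* (chromosome 13, 16011851 to 16031621, plus strand), the subunit of activin A, went the other way. It had 3.59, 2.26 and 0.420 FPKM with PT2385, and 3.08, 2.55 and 0.483 FPKM in vehicle at 1%, 4% and 20% pO2. Hypoxic levels were 8.56 and 5.38 times the normoxic level with PT2385 and 6.37 and 5.29 times in vehicle. *Gdf11*, a close relative of myostatin, was the most abundant of these ligands in every library, though nearly equal to *Mstn* at 20% pO2 in vehicle. It had 7.90, 10.9 and 10.6 FPKM with PT2385 and 7.58, 10.8 and 10.01 FPKM in vehicle. *Inhbb*, the activin B subunit, stayed at 0.173 FPKM or less. Among the summed FPKM of these 4 genes, *Mstn* was 3.11% at 1% and 0.826% at 4% pO2 against 48.6% at 20% pO2 in vehicle, and *Inhba* was 27.5% and 18.8% against 2.35%.

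**Figure D2:**
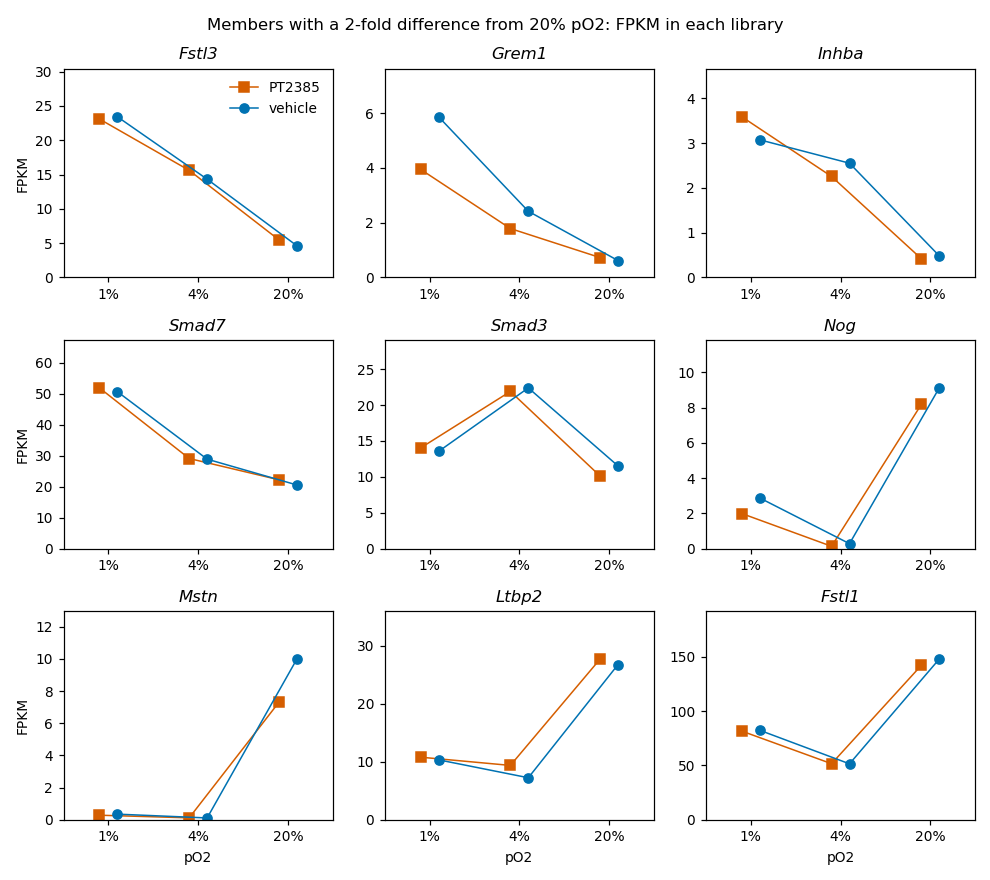
FPKM (linear axes from 0) at 1%, 4% and 20% pO2 for the 9 genes with a 2-fold difference from 20% pO2 in vehicle or with PT2385, each point 1 library (squares with PT2385, circles in vehicle, lines join the libraries of one treatment). *Fstl3*, *Grem1*, *Inhba* and *Smad7* are highest at 1% pO2, *Smad3* is highest at 4% pO2, and *Nog*, *Mstn*, *Ltbp2* and *Fstl1* are highest at 20% pO2.

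The BMP antagonists *Nog* and *Grem1* exchanged places between normoxia and hypoxia. *Nog* (chromosome 11, 89300638 to 89302332, minus strand) encodes noggin, which binds BMPs outside the cell. It had 1.99, 0.131 and 8.18 FPKM at 1%, 4% and 20% pO2 with PT2385, and 2.87, 0.281 and 9.12 FPKM in vehicle. The level was lowest at 4% pO2 in both treatments, and the 1% libraries lay between the others. The differences from normoxia were −1.62 and −3.02 at 1% and 4% pO2 with PT2385, and −1.39 and −2.98 in vehicle, and between 1% and 4% pO2 the differences were 1.40 and 1.60. *Nog* has 1 annotated transcript, from which its values were about 67.8, 4.0 and 283.0 fragments with PT2385 and 98.3, 9.9 and 314.8 in vehicle. The vehicle ratio to normoxia was 0.314 at 1% pO2 (95% exact interval 0.248 to 0.395) and 0.0310 at 4% pO2 (0.0147 to 0.0577), with intervals that cover counting error only.

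*Grem1* (chromosome 2, 113746164 to 113758646, minus strand), for gremlin 1, another secreted BMP antagonist, had the opposite order. It had 3.94, 1.79 and 0.726 FPKM at 1%, 4% and 20% pO2 with PT2385, and 5.86, 2.42 and 0.617 FPKM in vehicle. The hypoxic libraries all exceeded the normoxic ones. The ratio to normoxia was 5.38 at 1% pO2 (exact interval 4.13 to 7.11) and 2.45 at 4% pO2 (1.81 to 3.33) with PT2385, and 9.42 (7.14 to 12.6) and 3.88 (2.89 to 5.30) in vehicle. On the log2(FPKM + 1) scale the 4% difference with PT2385, 0.69, stayed under the 2-fold limit. *Chrd*, for chordin, had 2.58, 1.33 and 2.93 FPKM with PT2385 and 1.64, 1.45 and 2.26 FPKM in vehicle. Noggin transcripts were 27.7% and 6.78% of the summed FPKM of *Nog*, *Grem1* and *Chrd* at 1% and 4% pO2 against 76.0% at 20% pO2 in vehicle, and gremlin 1 transcripts were 56.5% and 58.3% against 5.14%. The sum itself was 10.4 FPKM at 1%, 4.14 at 4% and 12.001 at 20% pO2.

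**Figure D3:**
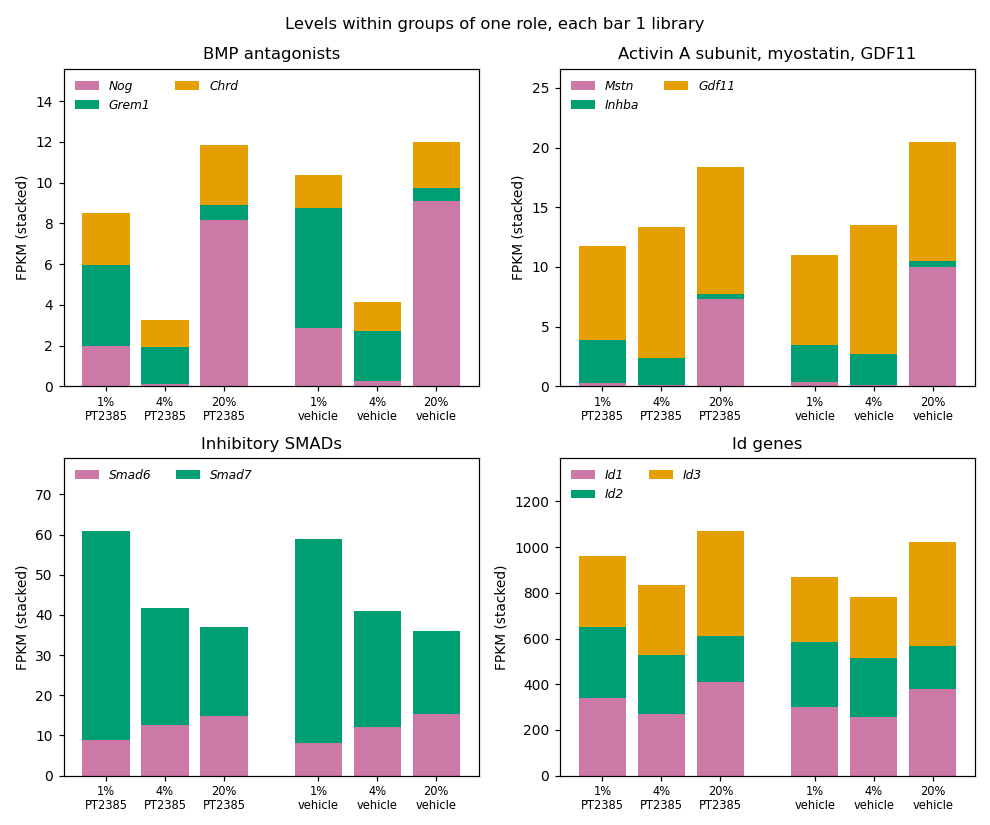
Stacked FPKM (bars from 0) of the BMP antagonists *Nog*, *Grem1* and *Chrd*, of activin A subunit, myostatin and GDF11, of inhibitory SMADs and of the abundant Id genes, each bar 1 library at 1%, 4% or 20% pO2 with PT2385 (left 3 bars) or in vehicle (right 3 bars). *Nog* is the largest block of the antagonists shown in normoxia and *Mstn* is visible only there, whereas the *Smad7* block is largest at 1% pO2.

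Transcripts of the BMP ligands themselves were scarce. None of the 16 BMP and GDF ligand genes reached a mean of 1 FPKM, and together they summed to between 0.662 and 1.79 FPKM per library. *Gdf9*, best known from the oocyte, was the most abundant by its mean, with 0.925, 0.0617 and 0.504 FPKM with PT2385 and 0.409, 0.132 and 0.538 FPKM in vehicle at 1%, 4% and 20% pO2. *Bmp2*, a ligand that drives bone and cartilage formation, was singled out after its values were seen. It had 0.738, 0.340 and 0.0259 FPKM with PT2385 and 0.574, 0.366 and 0.0259 FPKM in vehicle. That is about 55.9, 22.8 and 2.0 fragments with PT2385 and 43.6, 28.7 and 2.0 in vehicle, so the ratio to normoxia at 1% pO2 in vehicle was 22.2 with an exact interval of 5.79 to 189. The 4 hypoxic libraries were all above the normoxic ones. *Bmp5*, likewise singled out, had 0.205 (PT2385) and 0.226 FPKM (vehicle) at 4% pO2 and at most 0.0484 FPKM elsewhere. *Bmp4*, *Bmp6* and *Bmp7* did not exceed 0.0599 FPKM in any library.

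Receptors of both branches were present at all 3 oxygen levels. On the log2(FPKM + 1) scale, differences of the measured receptors from 20% pO2 stayed under 2-fold. *Tgfbr1* and *Tgfbr2*, the type I and type II TGF-β receptors, had between 10.7 and 13.1 FPKM in all 6 libraries, and their hypoxia differences lay between 0.05 and 0.20. The BMP type I receptor *Bmpr1a*, the most abundant BMP receptor by its mean, had 22.2, 27.8 and 28.1 FPKM at 1%, 4% and 20% pO2 with PT2385 and 24.2, 30.2 and 30.2 FPKM in vehicle. The type II receptor *Bmpr2* had 11.5, 15.04 and 14.4 FPKM with PT2385 and 12.1, 16.8 and 16.5 FPKM in vehicle. Both were lowest at 1% pO2 and alike at the other levels. *Acvr1*, which serves BMPs and can bind activin, had 23.0 to 28.1 FPKM. *Bmpr1b* was the only BMP receptor with a difference over 0.5 in size. It had 0.747, 2.55 and 0.912 FPKM with PT2385 and 0.742, 2.09 and 1.06 FPKM in vehicle, highest at 4% pO2. By the plain ratio of FPKM, *Bmpr1b* at 4% pO2 was 2.80 times the normoxic level with PT2385 and 1.97 times in vehicle. Of the activin receptors, *Acvr1b* had 5.74, 8.48 and 4.98 FPKM with PT2385 and 5.63, 8.19 and 5.78 FPKM in vehicle, *Acvr2a* stayed between 5.14 and 6.19 FPKM and *Acvr2b* between 1.20 and 2.25 FPKM. *Tgfbr3*, *Acvrl1* and *Acvr1c* had means under 1 FPKM, and none of them exceeded 0.485 FPKM.

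TGF-β ligand transcripts were mainly *Tgfb1*, at 85.3% to 91.7% of the summed FPKM of the 3 genes. *Tgfb1* had 62.9, 115 and 82.7 FPKM at 1%, 4% and 20% pO2 with PT2385, and 61.1, 99.3 and 70.9 FPKM in vehicle. It was highest at 4% and lowest at 1% pO2 in both treatments, with differences from normoxia of −0.39 and 0.47 with PT2385 and of −0.21 and 0.48 in vehicle. *Tgfb3* had 7.31, 9.53 and 10.1 FPKM with PT2385 and 7.25, 9.67 and 10.6 FPKM in vehicle, lowest at 1% pO2, and *Tgfb2* stayed between 0.830 and 1.54 FPKM. Of the 39 measured genes, 11 share exon bases with another annotated gene, on the opposite strand for *Tgfb2*, *Tgfb3*, *Ltbp2*, *Ltbp3*, *Bmpr1a*, *Acvr2a*, *Chrd*, *Fst*, *Fstl3* and *Id4*, and on the same strand for *Smad5*. The counting is not stated to use strand, so reads from such partners cannot be told apart.

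The latent TGF-β binding proteins, of which some but not all hold TGF-β in the matrix in an inactive complex, differed among themselves. *Ltbp2* (chromosome 12, 84783212 to 84876532, minus strand), a matrix member of the family, had 10.8, 9.37 and 27.7 FPKM at 1%, 4% and 20% pO2 with PT2385, and 10.3, 7.25 and 26.8 FPKM in vehicle. All hypoxic libraries lay below the normoxic ones, with differences of −1.28 and −1.47 with PT2385 and of −1.29 and −1.75 in vehicle. *Ltbp3* was lower by less, with 35.5, 29.5 and 48.9 FPKM with PT2385 and 39.3, 30.9 and 51.6 FPKM in vehicle. *Ltbp4* was higher in hypoxia, with 21.1, 26.5 and 17.8 FPKM with PT2385 and 24.2, 24.4 and 14.2 FPKM in vehicle. *Ltbp1*, the most abundant by its mean, stayed between 43.0 and 51.3 FPKM. *Bmp1*, named as a BMP but a protease that processes procollagen and also acts on chordin and latent myostatin, had 35.2, 44.7 and 27.4 FPKM with PT2385 and 39.3, 49.7 and 27.0 FPKM in vehicle. *Fstl1* (chromosome 16, 37776873 to 37836514, plus strand), a secreted glycoprotein that binds several ligands of the family, had 81.6, 51.6 and 142 FPKM with PT2385 and 82.3, 51.4 and 148 FPKM in vehicle. It was lowest at 4% pO2 and its differences were −0.79 and −1.44 with PT2385 and −0.84 and −1.51 in vehicle.

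Among the SMADs, the inhibitory members moved apart. *Smad7* (chromosome 18, 75367529 to 75395935, plus strand), which blocks both branches at the receptor, had 51.9, 29.1 and 22.2 FPKM at 1%, 4% and 20% pO2 with PT2385, and 50.7, 28.9 and 20.6 FPKM in vehicle. *Smad6*, which acts mainly on the BMP branch, had 8.87, 12.6 and 14.8 FPKM with PT2385, and 8.21, 12.01 and 15.3 FPKM in vehicle. Each step towards lower oxygen went with more *Smad7* and less *Smad6* in both treatments. The ratio of *Smad7* to *Smad6* was 5.86 at 1%, 2.32 at 4% and 1.502 at 20% pO2 with PT2385, and 6.18, 2.41 and 1.34 in vehicle. The differences of *Smad6* from normoxia, between −0.83 and −0.22, did not reach 2-fold.

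The receptor SMADs and *Smad4* were highest at 4% pO2, apart from *Smad1*. *Smad3* (chromosome 9, 63646767 to 63757994, minus strand), a transducer of TGF-β and activin, had 14.02, 21.9 and 10.1 FPKM with PT2385 and 13.5, 22.4 and 11.5 FPKM in vehicle, with 4% differences of 1.04 and 0.90. *Smad4* had 34.2, 55.6 and 35.8 FPKM with PT2385 and 36.2, 54.5 and 28.6 FPKM in vehicle. *Smad2* had 33.8, 39.6 and 26.5 FPKM with PT2385 and 30.4, 37.5 and 29.7 FPKM in vehicle. *Smad5*, the most abundant receptor SMAD of the BMP branch by its mean, had 19.4, 26.8 and 20.1 FPKM with PT2385 and 18.5, 29.8 and 20.8 FPKM in vehicle, and *Smad9* stayed between 4.25 and 7.16 FPKM. *Smad1* was lowest at 4% pO2, with 17.5, 17.2 and 19.5 FPKM with PT2385 and 17.9, 14.4 and 19.0 FPKM in vehicle. The order of the 3 oxygen levels was the same in both treatments for 28 of the 39 genes of the set (71.8%), against 60.8% of all genes compared. In both treatments, 10 (25.6%) were highest at 1%, 12 (30.8%) at 4% and 13 (33.3%) at 20% pO2, beside 23.5%, 26% and 26.2% of all genes compared.

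The Id genes, direct BMP targets in many cells, were the most abundant genes of the set and differed in direction. *Id3*, the highest by its mean, had 310.5, 307.5 and 459.7 FPKM at 1%, 4% and 20% pO2 with PT2385, and 286.7, 266.4 and 452.8 FPKM in vehicle. *Id1* had 341.9, 270.5 and 410.6 FPKM with PT2385 and 300.6, 256.0 and 379.7 FPKM in vehicle. For both genes every hypoxic library lay below both normoxic ones. *Id2* had 310.2, 257.1 and 199.2 FPKM with PT2385 and 283.4, 257.7 and 189.3 FPKM in vehicle, so every hypoxic library lay above both normoxic ones. None of these differences reached 2-fold. In vehicle they were −0.66 and −0.76 for *Id3*, −0.34 and −0.57 for *Id1*, and 0.58 and 0.44 for *Id2* at 1% and 4% pO2. *Id2* made up 32.1% and 30.7% of the summed FPKM of the Id genes at 1% and 4% pO2 against 18.6% at 20% pO2 with PT2385, and 32.4% and 33.0% against 18.5% in vehicle. *Id4* was low, between 1.24 and 2.76 FPKM.

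PT2385 was associated with small differences in this set at every oxygen level. No gene of the 39 differed 2-fold between PT2385 and vehicle on the log2(FPKM + 1) scale. The share of all genes compared was 0.46% higher and 0.343% lower at 1% pO2, 0.618% and 0.485% at 4% pO2, and 0.476% and 0.334% at 20% pO2. None differed by 0.5 or more in size at any level, against 8.5% of all genes compared. The median size of the difference was 0.07 at 1%, 0.12 at 4% and 0.10 at 20% pO2, against 0.09, 0.11 and 0.10 over all genes compared, and against 0.34 (1% pO2) and 0.47 (4% pO2) for the hypoxia differences of the same 39 genes in vehicle. The largest belonged to secreted antagonists and myostatin. *Grem1* was lower with PT2385 at 1% pO2, by 0.47 (3.94 against 5.86 FPKM in vehicle, ratio 0.672 with an exact interval of 0.585 to 0.770), and at 4% pO2, with 1.79 against 2.42 FPKM (ratio 0.741, 0.596 to 0.919). At 20% pO2 it had 0.726 against 0.617 FPKM (1.18, 0.811 to 1.71). *Nog* was also lower with PT2385 at 1% pO2, with 1.99 against 2.87 FPKM (ratio 0.692, 0.5005 to 0.953). At 4% pO2 *Nog* had 0.131 against 0.281 FPKM, past 2-fold by the plain ratio (0.469, 0.107 to 1.62) but from about 4.0 against 9.9 fragments. *Chrd* was higher with PT2385 at 1% pO2, with 2.58 against 1.64 FPKM, as was *Fst* at 4% pO2, with 10.2 against 7.10 FPKM. *Mstn* was lower with PT2385 in normoxia, with 7.31 against 9.99 FPKM. These intervals cover counting error in single libraries, which does not include the variation between cultures.

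**Figure D4:**
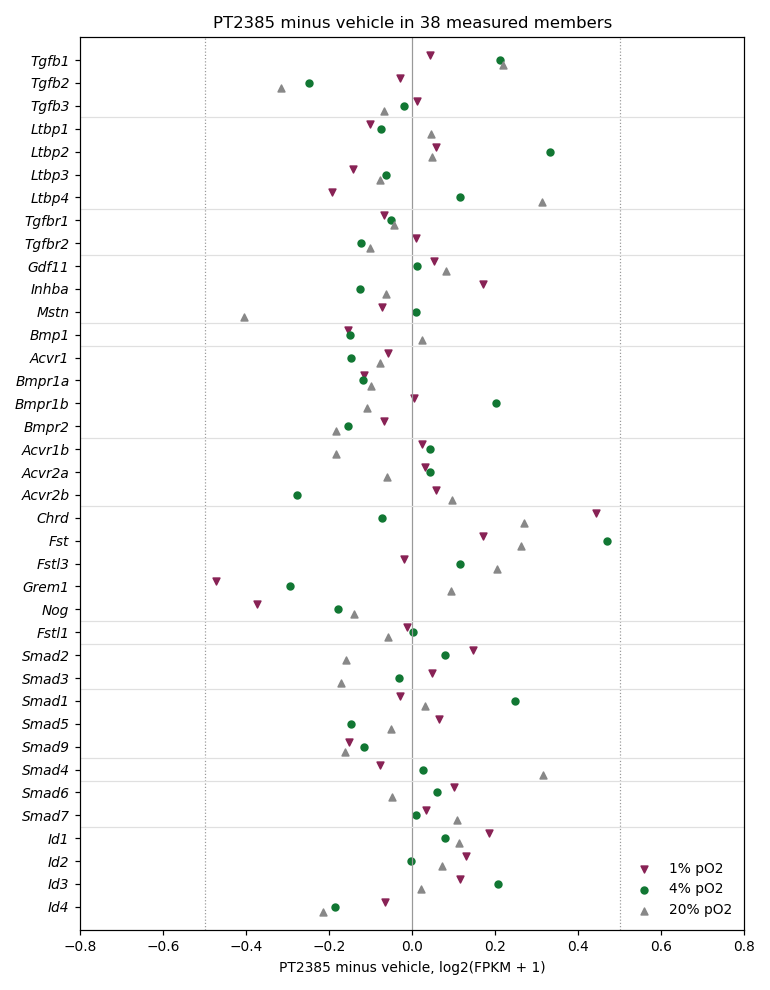
PT2385 minus vehicle on the log2(FPKM + 1) scale for 38 of the 39 measured genes at 1% (down triangles), 4% (circles) and 20% pO2 (up triangles), each point a comparison of 2 libraries, with dotted lines at −0.5 and 0.5. All points lie between the dotted lines, and the outermost are *Grem1* at 1% pO2 (−0.47) and *Fst* at 4% pO2 (0.47).

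Genes outside the set were described from 4 lists of the pathway. Of 25 measured genes known to be induced by TGF-β, 9 were 2-fold higher and 1 lower at 1% pO2 in vehicle, and 5 were higher and 5 lower at 4% pO2, where 6.59% and 1.96% of all genes compared were higher and lower at 1% pO2 and 7.14% and 2.95% at 4% pO2. The medians were 0.34 and 0.24. Those higher at both levels were *Bhlhe40*, *Lox*, *Loxl2* and *Il11*. *Lox*, a collagen cross-linking oxidase, had 58.4, 58.4 and 3.78 FPKM at 1%, 4% and 20% pO2 with PT2385 and 49.3, 56.2 and 3.34 FPKM in vehicle. *Loxl2*, a related oxidase, had 40.2, 27.0 and 7.58 FPKM with PT2385 and 41.6, 30.8 and 6.88 FPKM in vehicle. *Il11*, a cytokine of the IL-6 family, had 143, 97.0 and 37.9 FPKM with PT2385 and 97.7, 58.4 and 18.2 FPKM in vehicle. *Bhlhe40*, *Lox* and *Loxl2* are also known to be induced through HIF. *Acta2*, the smooth muscle actin, was 2-fold lower at both levels (−1.53 and −2.36), and *Tagln*, *Ctgf*, *Cyr61* and *Itgb5* were 2-fold lower at 4% pO2 only. The same 5 genes were 2-fold lower at 4% pO2 with PT2385. Between 1% and 4% pO2 in vehicle the median over this list was 0.73, with 8 genes 2-fold higher and 0 lower, beside 2.77% and 2.52% of all genes.

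Of 14 measured genes known or thought to be induced by BMP, 4 were 2-fold higher and 1 lower at 1% pO2 in vehicle, and 2 were higher and 1 lower at 4% pO2, with medians of −0.12 and 0.38. The shares of all genes compared were those beside the TGF-β list, 6.59% higher and 1.96% lower at 1% pO2 and 7.14% and 2.95% at 4% pO2. *Atoh8*, a transcription factor and BMP target, had 17.7, 27.9 and 63.7 FPKM at 1%, 4% and 20% pO2 with PT2385 and 19.1, 24.5 and 61.1 FPKM in vehicle. *Hey1*, a Notch and BMP target, had 2.46, 1.38 and 0.447 FPKM with PT2385 and 2.67, 1.76 and 0.701 FPKM in vehicle, and *Junb*, of the AP-1 family, which is also in the TGF-β list, had 218, 175 and 109 FPKM with PT2385 and 222, 157 and 95.2 FPKM in vehicle. *Stmn2* had 3.75, 3.86 and 0.613 FPKM with PT2385 and 3.65, 4.38 and 0.853 FPKM in vehicle. *Cxcr4*, counted as higher at 1% pO2 only, had 10.9, 3.83 and 1.45 FPKM with PT2385 and 9.35, 3.27 and 1.69 FPKM in vehicle. *Sp7*, counted as higher at 4% pO2 only, had 1.46, 10.5 and 2.90 FPKM with PT2385 and 1.70, 12.3 and 3.09 FPKM in vehicle. Its vehicle differences had opposite signs, −0.60 at 1% and 1.70 at 4% pO2.

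**Figure D5:**
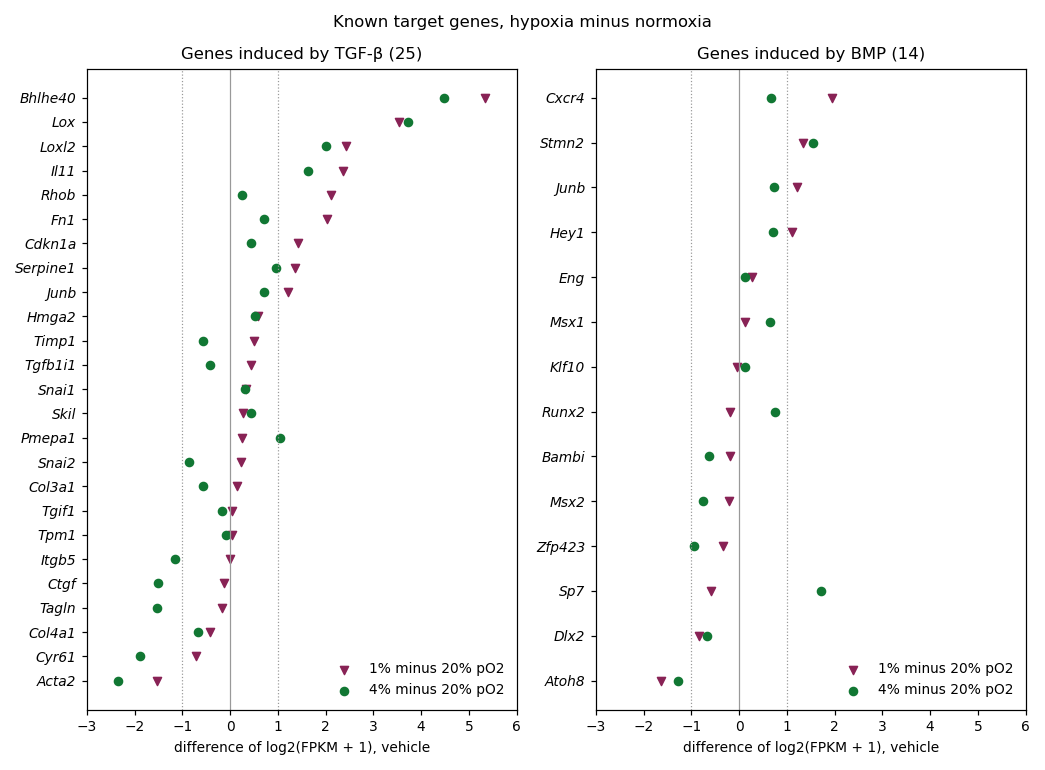
Hypoxia minus normoxia in vehicle, as differences of log2(FPKM + 1), for the 25 measured genes of the TGF-β list (left) and the 14 of the BMP list (right), at 1% (triangles) and 4% pO2 (circles), with dotted lines at −1 and 1. *Bhlhe40*, *Lox*, *Loxl2* and *Il11* lie beyond 1 at both levels, and *Acta2* lies beyond −1 at both.

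Of 18 measured extracellular and membrane modulators, 1 was 2-fold higher and 3 were lower at 1% pO2 in vehicle, and 1 was higher and 1 lower at 4% pO2, beside 6.59% and 1.96% of all genes compared at 1% pO2 and 7.14% and 2.95% at 4% pO2. *Htra1*, a secreted protease that cuts TGF-β family proteins, had 26.5, 41.1 and 8.52 FPKM at 1%, 4% and 20% pO2 with PT2385 and 25.6, 44.2 and 7.91 FPKM in vehicle. *Crim1*, a membrane protein that binds BMPs, had 7.59, 9.58 and 18.8 FPKM with PT2385 and 8.48, 8.04 and 20.7 FPKM in vehicle. The related protease *Htra3* (0.87 at 1% and 0.85 at 4% pO2) and the BMP antagonist *Nbl1* (0.78 and 0.82) were within 2-fold in vehicle. With PT2385, *Htra3* was 2-fold higher at both levels (1.00 and 1.18), and *Nbl1* stayed within 2-fold (0.51 and 0.66). Of 29 measured intracellular modulators, 0 passed 2-fold at 1% pO2 in vehicle (6.59% higher and 1.96% lower over all genes) and 2, *Zeb1* and *Pmepa1*, were higher at 4% pO2 (7.14%), with 0 lower (2.95%). The ubiquitin ligase *Wwp2* (0.68 and 0.84), *Tob1* (0.53 and 0.63), which restrains BMP signalling, the ubiquitin ligase *Smurf1* (0.33 and 0.35) and *Ctdspl* (−0.58 and −0.32), a phosphatase, differed in the same direction at 1% and 4% pO2 in vehicle. Between PT2385 and vehicle, 1 measured gene of the 4 lists differed 2-fold on the log2(FPKM + 1) scale at any level, *Il11* at 20% pO2, with 37.9 against 18.2 FPKM.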

How the data were processed

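RNA-seq was analysed from 6 libraries, 1 per condition, with groups taken from the sample labels. The authors' deposited table holds 1 value per gene and library, taken as FPKM because the submitters' notes name Cuffdiff and the values have that form. The supplementary methods name TopHat2 and GRCm38 gene models, whereas the submitters' notes list HISAT2 2.1.0, SAMtools 1.3.1, Cufflinks and Cuffdiff 2.2.1. Values were used with no further scaling, as differences of log2(FPKM + 1) between single libraries. Genes with a mean of at least 1 FPKM were compared and differences of at least 1 in size were counted. The step of the difference and count was tested on simulated data. The values of all 6 libraries are given for genes with a difference of at least 1 between oxygen levels or 0.5 between PT2385 and vehicle, for the most abundant gene of each role and, for context, for further genes of the set chosen after their values were seen. Up to 4 genes of each other list are named by the smaller of the 1% and 4% differences, and others there were picked after their values were seen. The values of 1 measured gene are not reported here, although it enters the counts and medians over the 39. Members and lists were chosen with earlier results of these data known. Gene positions and transcript lengths came from GENCODE M21 (GRCm38), which held all 59 genes.

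Fragments per value were estimated from genes with 1 transcript of at least 800 bases. In each library, a length correction of 170 or 180 bases and a step of 0.0431 to 0.0505 FPKM per kilobase put 92.1% to 93.0% of low values within 0.05 of a whole number. Fragment ratios have exact binomial 95% intervals. The alternatives were rescaling by the median ratio, a 1.5-fold limit, a pseudocount of 0.1, a minimum mean of 5 and no minimum. Computation used pandas 2.3.3, numpy 2.4.6 and scipy 1.17.1 under Python 3.11.15, and matplotlib 3.10.9 drew the plots.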

Additional observations from a re-analysis of the deposited data

How the results depend on the processing

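No paired analysis was run, because each condition is 1 library and there are no replicate numbers to pair. Oxygen levels were not used as replicates of the PT2385 contrast. No replicate could be left out. Rescaling by the median ratio (factors 0.992 to 1.01) and dropping the filter changed none of the 22 counts of 2-fold genes. With a pseudocount of 0.1, 5 genes in place of 3 were higher at 4% pO2 with PT2385 (*Grem1*, at 1.19, and *Bmpr1b* added, 9.89% of all genes), 5 in place of 4 lower there (*Chrd* added, 4.23%) and 3 in place of 2 higher at both levels with PT2385 (*Grem1* added, 5.93%). At 1% against 4% pO2, 3 in place of 2 were then higher (*Mstn* added, 4.37%) and 1 in place of 0 lower (*Bmpr1b*, 4.22%) in vehicle, and 3 in place of 1 higher with PT2385 (4.83%). The low genes moved most. In vehicle, *Inhba* was at 2.45 and *Grem1* at 3.06 at 1% pO2, both past *Fstl3* at 2.32, and at 4% pO2 *Mstn* was at −5.57 and *Nog* at −4.60.

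A mean of at least 5 FPKM leaves 29 of the 39 genes and removes *Nog*, *Mstn*, *Inhba* and *Grem1*. The counts against normoxia then came to 2 higher (5.55% of all genes) and 1 lower (1.51%) at 1% pO2 and to 1 higher (5.63%) and 2 lower (2.28%) at 4% pO2 in vehicle, to 2 higher (5.4%) and 1 lower (1.59%) at 1% pO2 and 2 lower (2.11%) at 4% pO2 with PT2385, and at both levels to 1 higher and 1 lower in vehicle (3.55% and 0.783%) and with PT2385 (3.5% and 0.816%). Between 1% and 4% pO2 they came to 0, where 1.87% to 2.16% of all genes passed. With a 1.5-fold limit, 6 were lower at 1% pO2 (6.87%) and 7 higher at 4% pO2 (15%) in vehicle, 5 were lower at 1% pO2 (6.77%) and 8 higher (15.3%) and 7 lower (7.85%) at 4% pO2 with PT2385, and 5 were lower at both levels in vehicle (3.29%). Between 1% and 4% pO2, 6 were higher and 4 lower in vehicle (7.89% and 8.43%) and with PT2385 (8.44% and 9.25%). For the 9 genes that differed 2-fold from 20% pO2, rescaling changed the sign of no difference from 20% pO2. The other settings cannot change a sign, and the rescaling factors were too close to 1 to do so for these genes. The signs were therefore not tested by these settings.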
